A study of Mus musculus with 8 samples.

Results

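The regions described here are KDM4B binding sites of wild type cells that carried H3K9me3 in cells without KDM4B. They were selected by overlap between deposited peak lists. A KDM4B peak of the wild type library was taken if it lay on an autosome, was narrower than 3000 bp, shared at least 1 bp with an H3K9me3 peak of the knockout library and shared none with an H3K9me3 peak of the wild type library. Of the 32017 KDM4B peaks in the wild type list, 30961 were autosomal and under 3000 bp, and 6845 of these met the rule, a share of 22.1% (95% exact binomial interval 21.6 to 22.6%, counting error only). They are called marked sites below. Because peak overlap chose them, that share and every comparison with the H3K9me3 lists is a description without a test.

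KDM4B is a demethylase of the JmjC family that removes the di- and trimethyl groups from lysine 9 of histone H3. The trimethylated form, H3K9me3, is laid down by methyltransferases such as SETDB1 and the SUV39H enzymes, is read by HP1 proteins and marks silent chromatin. In mesenchymal stem cells, progenitors in marrow of bone-forming and fat cells, KDM4B is known as a factor that BMP signalling induces and that favours bone formation over fat formation.

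Chromatin immunoprecipitation sequencing (ChIP-seq) was done on bone marrow-derived mesenchymal stem cells (mBMSCs) kept in osteogenic induction for 4 hours. Wild type cells came from Prx1Cre; Kdm4bw/w mice (WT) and knockout cells from Prx1Cre; Kdm4bf/f mice (KO), so both genotypes carried the Cre transgene. The Prx1 promoter is active in limb mesenchyme, and marrow cells of other origin would keep the gene. For the KDM4B libraries the genotype is given by the sample title alone, and the labels state neither the age nor the number of animals. The marked sites rest on 3 libraries, KDM4B in WT, H3K9me3 in KO and H3K9me3 in WT, with 1 library per group. No difference between genotypes has a replicate check.

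The H3K9me3 lists behind the rule differ in size, with 55306 peaks in KO and 943 in WT. Their depth and calling thresholds are unknown, so the lack of a wild type peak at a marked site says that none was called there and not that the mark was absent. The KO list also held 5 peaks on the mitochondrial sequence, which has no histones. Its part in the number of marked sites was not tested. Positions are in mouse build mm9, and sites are named by position.

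The narrow autosomal KDM4B sites fell almost wholly into marked and unmarked sites. No H3K9me3 peak of the KO library touched 24106 of the 30961 sites, and these are called unmarked sites. Both genotypes had an H3K9me3 peak at 10 sites, which the rule leaves out, and 5 of the unmarked sites touched a WT peak only. In all, 15 narrow sites touched wild type H3K9me3, or 0.0484% (0.0271 to 0.0799%). The left-out sites lay close together. On chromosome 15 between 76005896 and 76011754 there were 5 of the 10 with both peaks, and the widest of them, chr15:76010154-76011754, had 1386 of its 1601 bp covered in KO. The others with both peaks lay on chromosomes 10, 13 and 16.

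None of the marked sites was touched by a peak in the lists that the rule did not use. The KDM4B list of KO cells held 35 peaks and touched 0 of the 6845 marked sites, a count that allows a share of up to 0.0438%. The nearest of its peaks lay 23.3 kb from a marked site. The total histone H3 lists, with 38 peaks in WT and 28 in KO, also touched 0 marked sites, and 1 marked site lay within 10 kb of an H3 peak, at 9.52 kb. Of the 24106 sites without a KO H3K9me3 peak, 2 lay within 10 kb of a KDM4B peak of KO cells. An H3 peak lay that close to 1 of them in WT and 5 in KO. These lists are short, so few sites of either kind could be touched, and their depth is unknown except for H3 in WT.

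Marked sites were wider than unmarked ones. The median width was 727 bp (95% interval of the median 708 to 745 bp) for marked and 457 bp (453 to 462 bp) for unmarked sites, with quartiles of 438 and 1207 bp against 312 and 735 bp. Sites of 1 kb or more made up 34.0% of the marked (2329 of 6845) and 14.1% of the unmarked (3392 of 24106). KDM4B sites more than 10 kb from any H3K9me3 peak of either genotype, 11398 in number, had a median width of 471 bp. A wider peak offers more sequence to touch, so a wider median is in part built into an overlap rule.

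The share of sites that were marked increased through all 8 width classes. It was 11.3% (10.5 to 12.1%) under 300 bp, 22.2% (21.2 to 23.3%) from 500 bp to under 750 bp, 36.2% (34.6 to 37.8%) from 1000 to under 1500 bp and 51.3% (48.1 to 54.5%) from 2000 to under 3000 bp. To set this against the room a site offers, the KO peaks touched were divided by the summed site width plus the mean KO peak width of 308 bp. That density was 0.205 KO peaks per kb under 300 bp, 0.268 from 500 to under 750 bp and 0.303 at 2000 bp and over, against 0.0229 KO peaks per kb over the autosomes as a whole. Between the narrowest and the widest class the share thus differed by more than the density did. The autosomal value is a low yardstick, because sequence near the sites was also richer in KO peaks. From 2000 to 5000 bp from the midpoint there were 106 KO peaks per Mb around marked and 68.4 per Mb around unmarked sites. The excess over nearby sequence is therefore smaller than that over the autosomes as a whole.

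**Figure D1:**
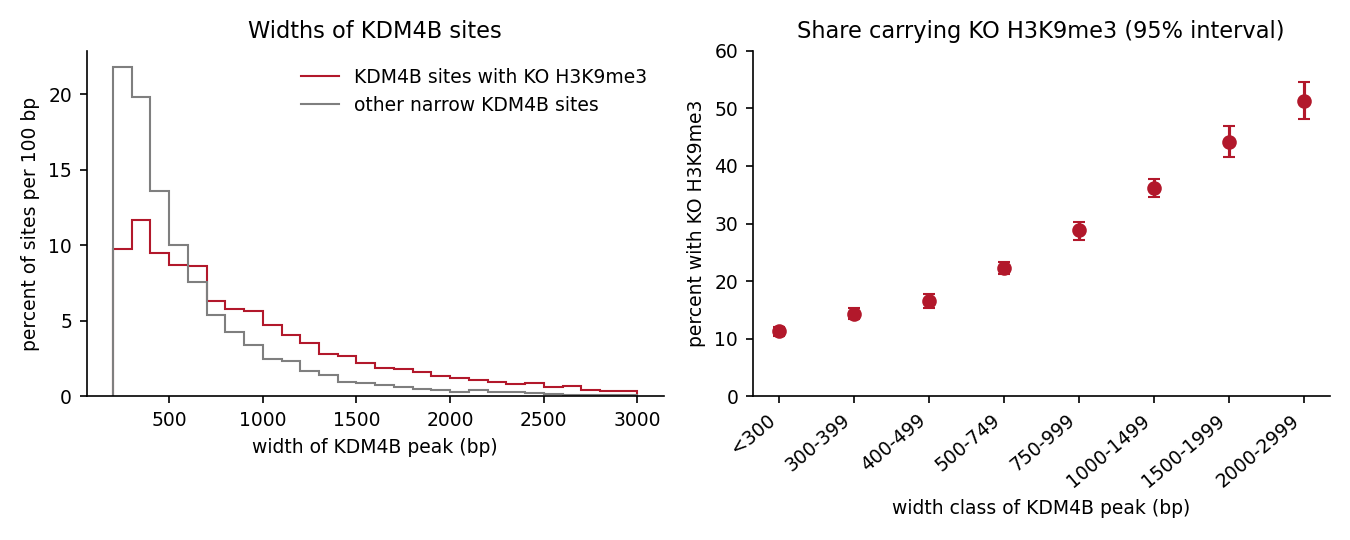
Left, the distribution of KDM4B peak widths in bins of 100 bp, as a percentage of the 6845 marked sites (red) and of the 24106 unmarked sites (grey). Right, the percentage of narrow autosomal KDM4B sites that were marked, by width class in bp, with 95% exact binomial intervals, which runs from 11.3% in the narrowest class to 51.3% in the widest.

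The sites just inside and just outside the width limit had from 399 to 1473 bp covered by the mark. The widest marked sites were chr2:75496362-75499356 and chr3:95085406-95088400, both of 2995 bp, with 399 and 709 bp covered, and chr2:35298882-35301874, of 2993 bp, with 428 bp covered. Just past the limit, chr11:115023468-115026468 had 837 of 3001 bp covered, chr8:73222231-73225233 had 1473 of 3003 bp and chr5:145874748-145877757 had 1020 of 3010 bp. The autosomes held 595 KDM4B peaks of 3000 bp or more, and 417 of them met the rest of the rule.

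Most marked sites met a single, short H3K9me3 peak. Of the 6845 sites, 5751 (84.0%) touched 1 KO peak, 954 touched 2, 126 touched 3, 13 touched 4 and 1 touched 5. The share with more than 1 was 3.90% under 300 bp and 43.0% from 2000 to under 3000 bp. The mark covered a median of 265 bp per site, or 37.9% of its width, with quartiles of 22.5 and 58.0%. In total the marked sites spanned 6.22 Mb, of which KO peaks covered 2.18 Mb.

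Covered length grew with site width more slowly than the width itself. The median covered length was 168 bp under 300 bp, 264 bp from 500 to under 750 bp and 522 bp from 2000 to under 3000 bp, which is 64.6, 43.2 and 22.1% of the site. Whole coverage was found at 255 sites (3.73%), most of them narrow, since only 36 of the 4731 marked sites of 500 bp or more were covered whole. At the other end 439 sites (6.41%) had under 10% of their width covered, 71 shared under 10 bp and 9 shared 1 bp. Membership of those 71 hangs on the exact edge of a peak call.

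The KO peaks at marked sites were wider than KO peaks elsewhere. The 7731 distinct peaks that touched a marked site, of 55158 autosomal KO peaks, had a median width of 306 bp (302 to 311 bp), against 250 bp (249 to 251 bp) for the other autosomal KO peaks and 248 bp for the 32813 that lay more than 10 kb from any KDM4B peak. Peaks of 500 bp or more were 18.1% of those at marked sites (1398 of 7731) and 7.05% of those far from KDM4B (6.77 to 7.33%). The narrowest width in the list, 199 bp, was held by 12.2% at marked sites and 22.8% far from KDM4B. Wide peaks have more chance to touch a site, and how much of the difference this makes was not tested.

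KO peaks lay inside the KDM4B site about as often as they ran past one of its edges. Of the 8094 pairs of a marked site and a KO peak, the KO peak lay wholly inside the site in 3907 (48.3%), crossed its lower edge in 1983 (24.5%), crossed its upper edge in 1949 (24.1%) and enclosed the whole site in 255 (3.15%). The sides did not differ beyond counting error. At sites with 1 KO peak, its midpoint lay on the higher-coordinate side in 49.4% (48.1 to 50.7%) and a median of 188 bp from the KDM4B midpoint.

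Seen from the KDM4B midpoint, coverage by the mark was highest at the centre. Each marked site was chosen because a KO peak touched it, so a fall away from the site is in part built in. The KO mark covered the midpoint of 3260 of the 6845 marked sites, or 47.6%. It covered 19.9 and 20.7% at 500 bp on the lower and higher side, 8.55 and 8.14% at 1000 bp, and 3.86 and 3.61% at 2000 bp. Beyond that it stayed level, at 3.42 and 3.26% at 5000 bp. Wild type H3K9me3 covered 0 marked sites at the midpoint, which the rule fixes, and at most 0.0438% at 5000 bp on either side.

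Wide marked sites had a flat top in place of a central maximum. At sites of 1000 bp or more the KO mark covered 34.3% at 250 bp on the lower side, 34.1% at the midpoint and 33.6% at 250 bp on the higher side. At sites under 500 bp it covered 59.9% at the midpoint and 40.2 and 39.5% at 250 bp. Among marked sites of 1000 bp or more with 1 KO peak, 1654 in number, the peak's midpoint lay within 0.25 of the distance from the site's centre to its edge in 27.0% (24.9 to 29.2%) and between 0.25 and 0.5 of it in 28.2% (26.0 to 30.4%). It lay between 0.75 and 1.0 of it in 15.0% (13.3 to 16.8%). The intervals of the innermost ranges overlap, and the range next to the edge lies below both.

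**Figure D2:**
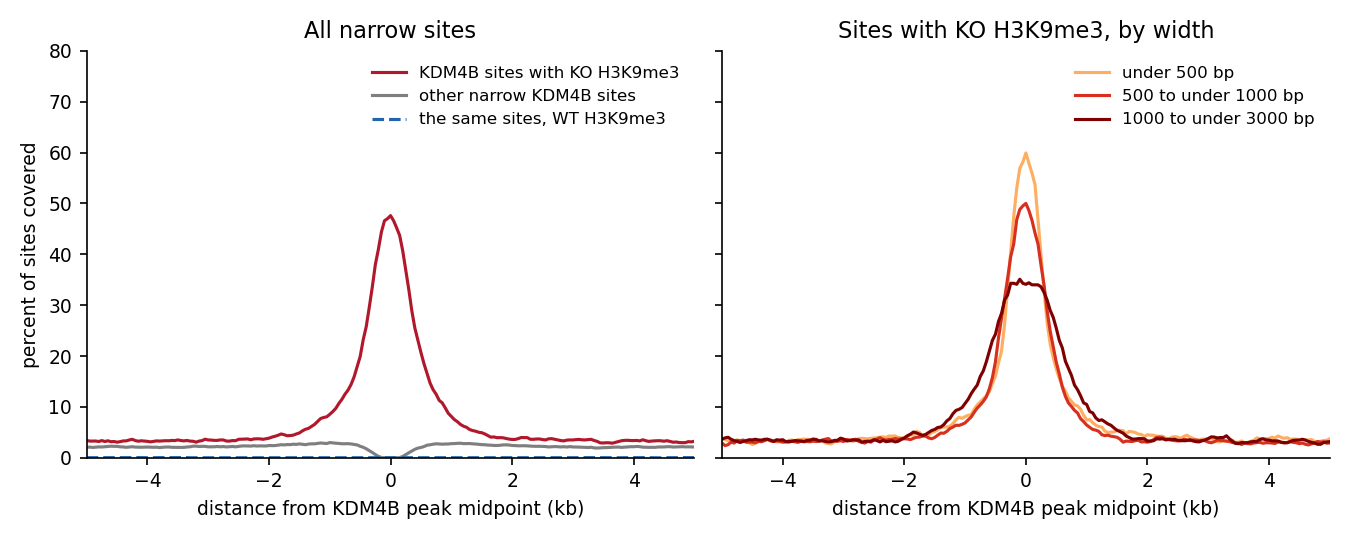
Percentage of sites covered by an H3K9me3 peak, by distance in kb from the KDM4B midpoint. Left, KO mark at marked (red) and unmarked (grey) sites, with the WT mark at marked sites (dashed blue); right, KO mark at marked sites in 3 width classes, where the midpoint value is 59.9% under 500 bp and 34.1% at 1000 bp or more. The dip of the grey line to 0 at the centre follows from how unmarked sites were chosen. The rise of the KO lines at marked sites is in part built in likewise.

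At marked sites that met a pair of KO peaks, the placement of both was compared with the site's centre. The KO midpoints lay on both sides of the KDM4B midpoint in 704 of 954 such sites, or 73.8% (70.9 to 76.6%). Separate peaks that touch the same site must lie apart, so a high share is in part built in, and no preference for the centre is read from it. The midpoints were a median of 544 bp apart, with quartiles of 427 and 708 bp. The gap between the peaks had a median of 196 bp, with quartiles of 95 and 325 bp. Sheared fragments were 200 to 500 bp long, so spacings below that length are close to the resolution of the assay.

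The marked site with the most covered sequence was chr14:69901858-69903823. This site of 1966 bp held a single KO peak of 1768 bp, from 69901866 to 69903633, or 89.9% of its width, and the nearest WT H3K9me3 peak lay 54.3 kb away. It was followed by chr13:58501999-58504727, where 1 KO peak of 1710 bp took up the upper part of a 2729 bp site. The third, chr11:23155214-23157624, was covered by 4 separate KO peaks of 206, 199, 834 and 433 bp that together made 1672 bp. So large covered lengths came from 1 wide peak at some sites and from several peaks at others.

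The next sites in that order each met 2 or 3 KO peaks. They were chr11:120210071-120212599 with 3 KO peaks and 1486 bp covered, chr10:80653068-80655394 with 2 and 1448 bp, chr17:27691893-27693912 with 2 and 1440 bp, of which 1143 bp lay under a single KO peak, and chr17:34167922-34170463 with 3 and 1428 bp. The last of the leading 10 were chr10:96079033-96081005 with 1389 bp, chr11:115970040-115972538 with 1387 bp and chr12:88223246-88226174 with 1383 bp. WT H3K9me3 was called 7.91 kb from the chromosome 10 site at 80653068 and 17.2 kb from the chromosome 17 site at 34167922. For the other 5 sites of this paragraph the nearest WT peak lay 1105 to 4036 kb away.

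The only site with 5 KO peaks was chr17:44871213-44873505. Its 2293 bp held KO peaks of 214, 364, 282, 365 and 203 bp, of which the first and the last shared only 15 and 51 bp with the site. The covered length was 1077 bp, or 47.0%. Sites with 4 peaks included chr11:102170022-102172148, with 1328 of 2127 bp covered, chr19:55816128-55818449, with 1219 of 2322 bp, and chr10:126986313-126988155, with 1103 of 1843 bp. The nearest WT peak lay 1123 kb or more from each of these 4 sites. Another site with 4 KO peaks, chr10:80254440-80256473, lay 384 kb from one.

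Among sites of 500 bp or more, the widest ones covered whole by the mark were chr1:90173447-90174316, of 870 bp, chr15:76012552-76013348, of 797 bp, and chr9:98855714-98856478, of 765 bp. The first and second lay 2.68 and 2.28 kb from a WT H3K9me3 peak, and the third lay 2557 kb from one. Whole coverage was thus found both near a called WT H3K9me3 peak and far from one. The next were chr2:29108009-29108759, of 751 bp, and chr3:75760168-75760895, of 728 bp, with WT peaks 625 and 7934 kb away.

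Few sites of either kind lay close to wild type H3K9me3, whose list held only 943 peaks. The median distance to the nearest WT peak was 2048 kb (1962 to 2132 kb) for marked and 2522 kb (2457 to 2573 kb) for unmarked sites. Within 10 kb of a WT peak lay 32 marked sites (0.467%, 0.320 to 0.659%) and 118 unmarked sites (0.490%, 0.405 to 0.586%), shares whose intervals overlap. Of all autosomal KO peaks, 1.29% lay that close. Within 1 Mb of a WT peak lay 32.8% of marked (31.7 to 33.9%) and 27.4% of unmarked sites (26.9 to 28.0%), intervals that are apart. Of all autosomal KO peaks, 37.1% lay within 1 Mb. The differences were not tested. The marked site nearest to a WT peak, chr10:80645154-80646092, abutted one without sharing a base as positions were read, and chr4:141032883-141034357 lay 0.348 kb from one.

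KO H3K9me3 was denser around marked than around unmarked sites, at every distance examined. The same KO list divided the sites, and a site in a stretch rich in KO peaks is more likely to be touched. A difference is therefore in part built in, and how much was not tested. From 2 to 5 kb on both sides of the midpoint there was a mean of 106 KO peaks per Mb around marked and 68.4 around unmarked sites. The values were 92.6 and 58.4 per Mb from 10 to 50 kb, and 73.1 and 48.6 per Mb from 50 to 500 kb. Sites under 500 bp had 94.9 against 59.8 per Mb from 10 to 50 kb, and sites of 1000 bp or more had 92.3 against 58.4, so the difference was present in narrow and wide sites alike. At least 1 KO peak lay from 10 to 50 kb away at 82.5% of marked (81.5 to 83.3%) and 76.4% of unmarked sites (75.9 to 77.0%).

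KDM4B peaks showed the opposite order from 2 to 50 kb. From 2 to 5 kb there were 108 KDM4B peaks per Mb around marked and 155 around unmarked sites, and from 5 to 10 kb 80.2 and 112 per Mb. This held for sites under 500 bp, with 81.4 and 150 per Mb from 2 to 5 kb, and for sites of 1000 bp or more, with 142 and 202 per Mb. From 50 to 500 kb the order turned, with 31.5 per Mb around marked and 28.6 around unmarked sites. A narrow KDM4B neighbour within 10 kb was present for 70.8% of marked (69.7 to 71.8%) and 77.0% of unmarked sites (76.5 to 77.5%). The median gap to the nearest narrow KDM4B peak was 899 bp (813 to 1052 bp) for marked and 1109 bp (1051 to 1167 bp) for unmarked sites, intervals that just meet. The upper quartile of the gap was larger for marked sites, 14150 bp against 8490 bp. The gaps were not split by site width. These densities and gaps count neighbours that are shared between sites, and the differences were not tested.

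**Figure D3:**
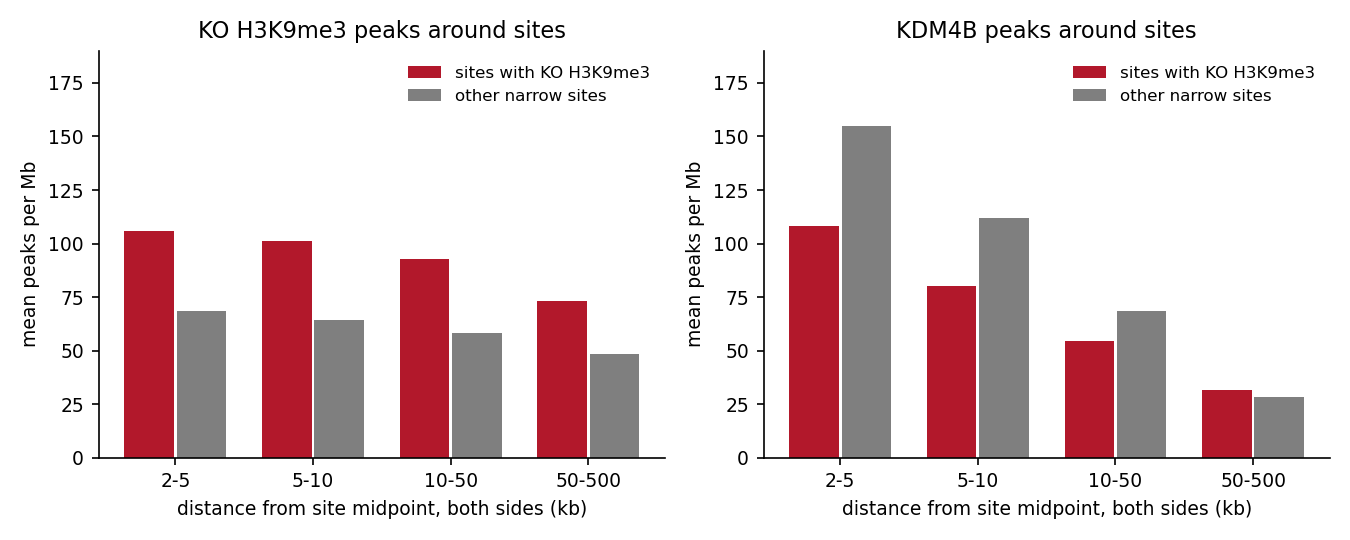
Mean number of peaks per Mb at 4 ranges of distance in kb from the site midpoint, both sides together, around marked (red) and unmarked (grey) sites. KO H3K9me3 peaks (left) are denser around marked sites at every range, while KDM4B peaks (right) are sparser around them up to 50 kb and slightly denser from 50 to 500 kb. The left difference is in part built in, since the same KO list divided the sites.

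At gaps under 100 kb, the next narrow KDM4B site was more often marked after a marked site than after another narrow site. The KO list divided the sites and was denser around marked ones, so a difference is in part built in. How much was not tested, and neighbouring pairs of sites are not independent. When the next narrow KDM4B site began under 1 kb away, it was marked in 886 of 2137 cases after a marked site (41.5%, 39.4 to 43.6%). After any other narrow site it was marked in 1203 of 7445 (16.2%, 15.3 to 17.0%). Those other sites are the unmarked ones and the 10 with an H3K9me3 peak in both genotypes. In 363 of those 886 cases a single KO peak touched both sites, and without them the share was 29.5% (27.4 to 31.7%). At 10 to 50 kb the shares were 30.9% (28.7 to 33.2%) and 21.5% (20.5 to 22.6%), and at 100 kb or more 30.0% (27.1 to 32.9%) and 26.8% (25.2 to 28.5%), where the intervals overlap.

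The shares also differed with the gap itself. After a narrow site that was not marked, the next one was marked in 13.0% (12.0 to 14.1%) of cases at 1 to 5 kb. The share was 17.8% (16.2 to 19.5%) at 5 to 10 kb and 25.9% (23.9 to 28.0%) at 50 to 100 kb. After a marked site the lowest share was also at 1 to 5 kb, with 21.7% (18.9 to 24.7%). These shares were not split by site width, and their change with the gap was not tested. Chained at gaps of 10 kb or less, the 6845 marked sites formed 4086 single sites (59.7%) and 1125 chains, of which 278 held 3 or more sites and 47 held 5 or more. Another marked site lay within 10 kb of 40.3% of them (39.1 to 41.5%). That share depended on how sites were defined, and was 14.9% when KDM4B peaks within 1 kb were first merged and 65.5% when a KO peak within 1 kb counted as shared.

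The largest chain was on chromosome 15 between 76001433 and 76038236. It held 16 marked sites of 457 to 2648 bp among 27 KDM4B peaks in 36.8 kb, with 26 KO and 4 WT H3K9me3 peaks inside its span. The second, on chromosome 10 between 126975897 and 127016730, held 12 marked sites among 28 KDM4B peaks and 25 KO peaks, and the nearest WT peak was 2903 kb away. The third, on chromosome 7 between 148640963 and 148667013, held 10 marked sites among 15 KDM4B peaks, with 2989 kb to the nearest WT peak.

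Chains of like size differed in how many of their KDM4B sites were marked. On chromosome 10 between 79479201 and 79502788, 10 of 11 KDM4B peaks were marked, and the remaining peak was 3000 bp or wider. On chromosome 17 between 34161339 and 34176975 all 8 were marked. On chromosome 15 between 77591882 and 77644955 there were 10 marked sites among 41 KDM4B peaks in 53.1 kb, and 1.33 kb of the marked sites was covered. The other chains among the largest 10 lay on chromosome 10 from 80591904 to 80618034, chromosome 17 from 56148326 to 56176224, chromosome 9 from 107514208 to 107532359 and chromosome 8 from 73282582 to 73330852, with 9 or 10 marked sites each.

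**Figure D4:**
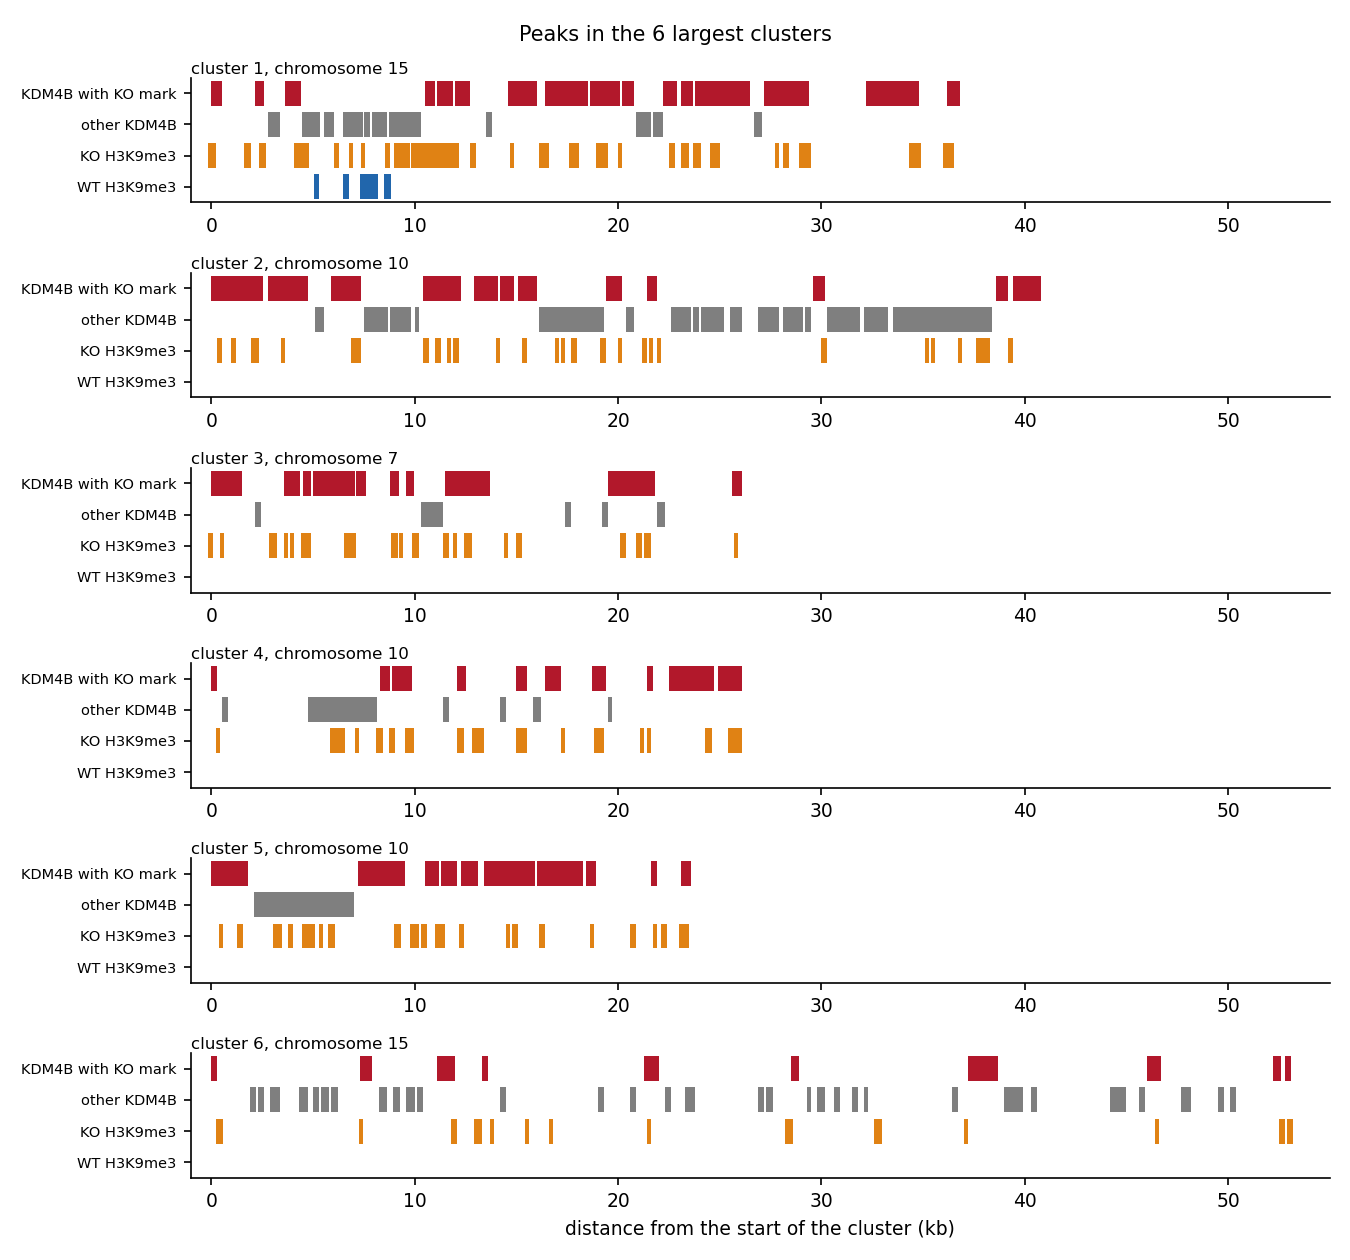
Positions of peaks in the 6 chains with the most marked sites, by distance in kb from the start of each chain: marked KDM4B sites (red), other KDM4B peaks (grey), KO H3K9me3 (orange) and WT H3K9me3 (blue). WT H3K9me3 peaks appear in the first chain only, and in the sixth most KDM4B peaks are unmarked.

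Every autosome had marked sites, with shares of its narrow KDM4B sites from 16.1% to 27.3%. Chromosome 8 had the highest share, 27.3% (390 of 1429), followed by chromosome 5 with 26.1% (24.1 to 28.1%) and by chromosomes 4 (495 of 1981 sites) and 17 (360 of 1440). Chromosome 1 had the lowest, 16.1% (14.5 to 17.8%), next to chromosome 13 with 16.5% (14.5 to 18.5%) and chromosome 3 with 17.4% (15.6 to 19.4%). Within the highest 4 and within the lowest 3 the intervals overlap, while those of chromosomes 8 and 1 are apart. Per Mb, chromosome 11 had the most marked sites, 5.29, and chromosome 1 the fewest, 1.67.

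The marked share also differed between chromosomes within a width class. Among sites under 500 bp it ran from 9.07% on chromosome 3 to 18.6% on chromosome 8, and among sites of 1000 bp or more from 27.4% on chromosome 13 to 50.4% on chromosome 5, extremes of 19 values that were not tested. Median width of marked sites lay between 660 bp on chromosome 8 and 874 bp on chromosome 12. Across the 19 autosomes the marked share went with the density of KO H3K9me3 peaks that touched no KDM4B peak, with a Pearson r of 0.803 and a Spearman rho of 0.856. Without chromosomes 3 and 11, the farthest from the median density, r was 0.813. All points share the same 3 libraries, and base composition was not examined. Both values come from the KO list that the rule used, so a relation between them is in part built in. With the density of narrow KDM4B sites itself r was 0.364 and rho 0.458. Chromosome 18 stood off the relation, with 24.0% marked (21.1 to 27.2%) at 12.4 such KO peaks per Mb.

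**Figure D5:**
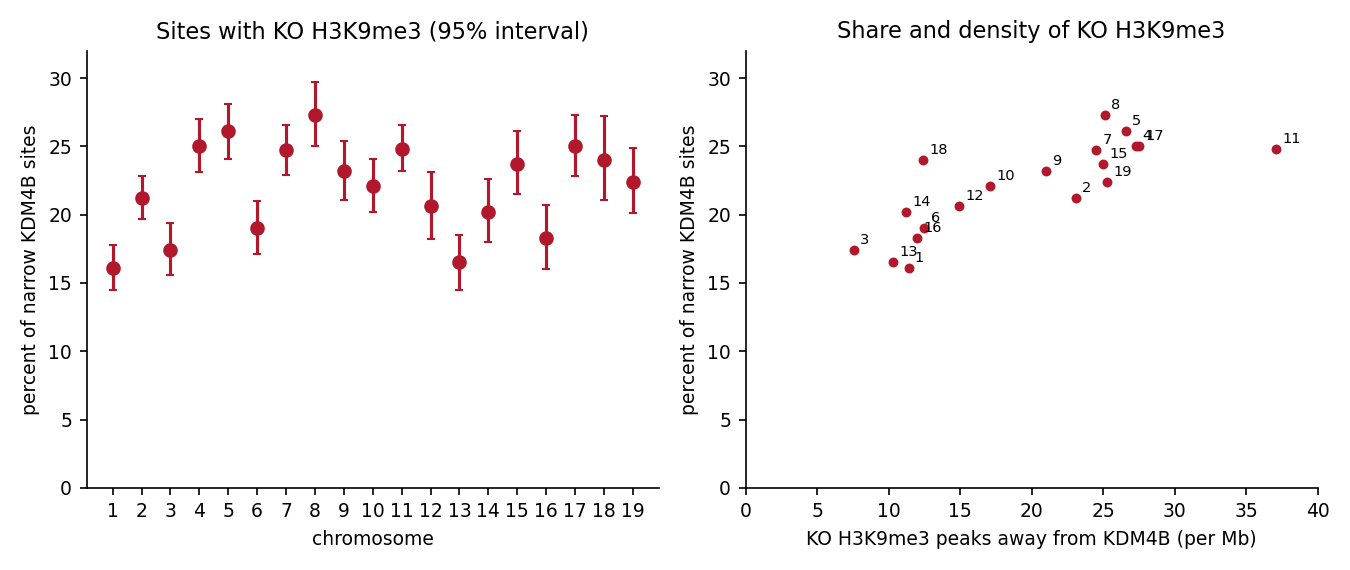
Left, percentage of narrow KDM4B sites that were marked on each autosome, with 95% exact binomial intervals. Right, the same percentage against the number per Mb of KO H3K9me3 peaks that touched no KDM4B peak, 1 point per autosome, from chromosome 3 at 7.55 to chromosome 11 at 37.1 per Mb.

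Marked sites were spread unevenly over windows of 1 Mb, which hold far fewer sites than a chromosome, so that their shares carry more counting error. Marked sites were found in 1453 of the 1835 windows with a narrow KDM4B site, and 260 windows held 50% of them. How far this follows the spread of all narrow KDM4B sites was not examined. In the 1062 windows with at least 10 narrow sites the marked share had quartiles of 10.8, 20.0 and 30.0% and reached 69.2%. The most marked sites lay on chromosome 10, with 60 of 116 narrow sites from 80000001 to 81000000 and 47 of 86 from 79000001 to 80000000. Chromosome 15 from 76000001 to 77000000 had 40 of 80, chromosome 19 from 5000001 to 6000000 had 38 of 87 and chromosome 7 from 52000001 to 53000000 had 36 of 76.

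Some windows crowded with KDM4B held no marked site. Of the 1062 windows, 62 had none. Chromosome 3 from 60000001 to 61000000 held 63 narrow KDM4B sites with 0 marked, which allows a share of up to 4.76%, and 3 KO H3K9me3 peaks lay elsewhere in the window. Chromosome 6 from 134000001 to 135000000 held 32 sites with 0 marked although it had 19 KO peaks, and chromosome 4 from 122000001 to 123000000 held 26 with 0 marked and 27 KO peaks. The highest shares were 9 of 13 sites on chromosome 19 from 53000001 to 54000000 and 11 of 16 on chromosome 4 from 147000001 to 148000000, windows that had 51 and 96 KO peaks.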

How the data were processed

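The submitters' processing notes name Bowtie and SAMtools for every sample, MACS for KDM4B, MACS2 for the remaining samples, and the builds mm9 and hg19. The authors deposited 1 peak list per sample, and pooling is not stated. All but the H3 WT list hold positions only, so peaks could not be ranked by strength. Depth is known for H3 WT alone, 40420466 tags after filtering, with a q-value threshold of 0.05, per the file headers. The H3K9me3 samples carried a yeast chromatin spike-in, and no source used here says how it was applied. The 2 input samples were not analysed here.

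The gene and sequence tables at hand are of GRCm38.p6. On chromosome 7 the last peak ends at 152508057, past the last gene of that build at 145324059, so gene names, gene lists, promoters, GC content and sequences were not used here, though planned.

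Starts were read as counting from 0, and printed positions count from 1. Sites and rules for naming them (largest covered length, most KO peaks, largest covered share, longest chains, nearest the width limit or a WT peak) were chosen with earlier results of these data known. Overlaps used Python 3.11.15, numpy 2.4.6, pandas 2.3.3 and scipy 1.17.1 and were tested on simulated data, and bedtools 2.31.1 found 6845 sites as well. Shares carry exact Clopper-Pearson and medians order-statistic 95% intervals, which cover counting error only, since neighbouring sites are not independent. For 0 sites, the upper limit is the share of 3 sites. Alternatives were the minimum overlap, sharing within 1 kb, the width limit, dropping the narrowest KO peaks, adding X and Y, merging KDM4B peaks, and the neighbour distance. Chosen after seeing the data were starts counted from 1 and leaving out sites near H3 or KDM4B KO peaks.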

Additional observations from a re-analysis of the deposited data

Results flagged for a closer look

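The X chromosome, which the rule leaves out, had 10 narrow KDM4B sites that touched a KO and no WT H3K9me3 peak, of 450 narrow sites, or 2.22% (95% exact binomial interval 1.07 to 4.05%), and 1 that touched a WT peak. The KO list held 96 peaks on the X, against 55158 on the autosomes. They were singled out because they lie outside the autosomal comparison. Of the 10, 5 lay together between 166410763 and 166425091, and 4 of the other 5 were 2023 to 2160 bp wide, with 149 to 246 bp covered. The Y had 3 narrow sites, of which 0 touched a KO peak, too few to limit the share below 70.8% (upper exact binomial bound). The difference from the autosomes was not tested, and its cause was not tested.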

How the results depend on the processing

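The number of marked sites was 4516 to 10614 over 9 settings, and marked sites had the wider median in each. Requiring 50% of the shorter peak gave a marked share of 18.4%, a median width of 810 bp and another marked site within 10 kb for 32.1%. Sharing within 1 kb gave 10614 sites, 34.3%, medians of 594 and 465 bp for marked and unmarked sites, and 65.5%. Without a width limit the values were 23.0%, 774 bp and 42.7%. With widths under 1000 bp they were 4516 sites, 17.9%, 523 and 407 bp, and 32.7%. Dropping KO peaks of the narrowest width gave 20.0% and 37.5%. Merging KDM4B peaks within 1 kb gave 25.6%, 1032 and 535 bp, and 14.9%, since merging removes close neighbours. Neighbours within 5 and 50 kb were found for 33.1 and 65.0%. Adding X and Y, starts counted from 1 (6850 sites) and leaving out the neighbourhood of H3 peaks and of KDM4B peaks in KO (6844 sites) moved none of these values beyond their intervals. Gene starts and GC content were not examined for want of an mm9 annotation. A missing WT peak is limited by an unknown depth.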
